A study of Homo sapiens with 2 samples.

Results

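The genes described here are 10 core genes of the human microRNA pathway: DROSHA, DGCR8, XPO5, DICER1, TARBP2, AGO1, AGO2, AGO3, AGO4 and TNRC6A. They were chosen by name, because LINC01133, the long non-coding RNA that the study overexpressed, has been proposed to bind microRNAs. All 10 symbols were matched to a gene identifier, among 28303 genes listed. RNA was measured by poly(A)-selected sequencing in HGC27, an established gastric cancer cell line, with 1 library per group. The cells of the overexpression library carried a pcDNA3.1 plasmid with linc01133, those of the control library the pcDNA3.1 control plasmid, and both were harvested 48 h after transfection with Turbofect. The expression is transient and from a plasmid, in 1 cell line. With 1 library per group, no difference below has a replicate check, no test between the groups was possible, and each value describes these libraries.

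A microRNA is cut from a long primary transcript in the nucleus by the Microprocessor, in which DGCR8 binds the hairpin and the RNase III enzyme DROSHA cleaves it. XPO5 (exportin 5) carries the hairpin to the cytoplasm, where DICER1, with its double-stranded RNA binding partner TARBP2, cuts it to a duplex. An Argonaute protein (AGO1 to AGO4) keeps 1 strand and pairs it with target RNAs, and TNRC6A (GW182) ties the Argonaute to the enzymes that shorten poly(A) tails and remove caps.

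The libraries held 16302581 counted fragments under overexpression and 15666629 in the control. LINC01133 had 74 fragments in the overexpression library, against 4 in the control. Levels are given as FPKM, fragments per kilobase of exon (all annotated exons of a gene merged), scaled to the depth of the library. Levels of different genes are compared per length only, and depend on the exon length used. They are not adjusted for base composition, with which the ratio between the libraries moved over all genes. Brackets hold 95% intervals that cover counting error only. Log2 ratios divide FPKM + 1 under overexpression by FPKM + 1 in the control, and counts of genes at least 2-fold higher or lower use this scale. Of 15 listed epithelial markers 2 had a mean FPKM over both libraries of at least 1, MUC1 at 1.13 under overexpression and 1.41 in the control and TJP3 at 0.960 and 1.86, while KRT18 was at 0 in both libraries and CDH1 had 1 fragment under overexpression and 2 in the control. Of 7 listed gastric lineage markers 3 passed that level, with GATA4 at 6.36 under overexpression and 8.36 FPKM in the control. Of 11 mesenchymal markers 10 did, with VIM at 210.02 and 198 FPKM in the same order, and 1 of 6 listed blood and endothelial markers did. A bulk library cannot tell apart fewer cells with a transcript from less RNA per cell.

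Of the 10 genes DICER1 alone was at least 2-fold higher in FPKM + 1 under overexpression, with TNRC6A just under that threshold, and 0 of the 10 were at least 2-fold lower. The share of 10% higher lay near the background, since 11.9% of the 11945 genes whose FPKM averaged 1 or more were higher and 0.444% lower. All 10 genes passed that level. The log2 ratio was above 0 for 9 of 10, beside 55.4% of all genes past the level, and below 0 for TARBP2 alone, beside 44.6% of all genes. With the trimmed mean of M values as scaling, DICER1 was again the 1 gene past 2-fold, beside 8.07% of all genes. By the upper quartile none of the 10 was, with DICER1 at 0.94, nor with the trend on GC content subtracted (DICER1 at 0.45) or those on GC content and transcript length (0.39). The median log2 ratio was 0.29 over the 10 genes and 0.10 over all genes past the level. In FPKM itself, without the added 1, the ratio was 2 or more for 3 of the 10 (DICER1, TNRC6A and AGO3), beside 19.7% of all genes. The counting interval of the ratio lay above 1 for 7 genes, beside 42.6% of all genes with an interval, and below 1 for TARBP2 alone, beside 32.2%. For DGCR8 and XPO5 it held 1.

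**Figure D1:**
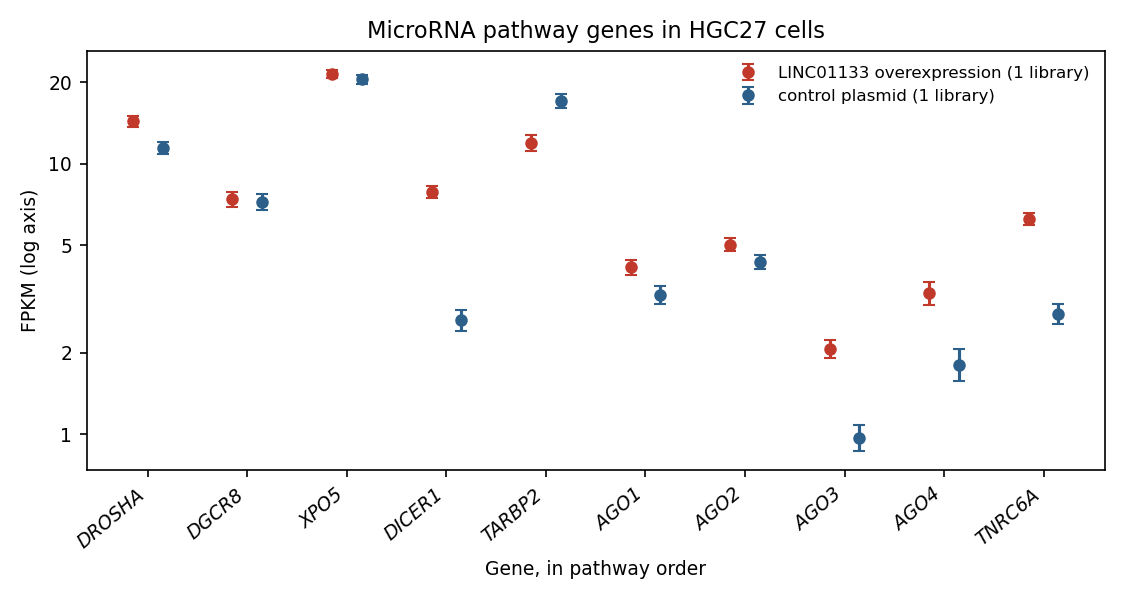
FPKM of each gene on a log axis in the overexpression library (left, red) and the control library (right, blue), with 95% counting intervals as bars. DICER1, TNRC6A, AGO3 and AGO4 are well apart between the libraries, DGCR8 and XPO5 overlap, and TARBP2 is the gene with the higher value in the control.

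In the Microprocessor, the enzyme and its RNA-binding partner each differed by less than 1.5-fold between the libraries. DROSHA, on chromosome 5 (31400497 to 31532196, minus strand; GRCh38, GENCODE 29, as for all genes below), had 14.4 FPKM under overexpression (13.7 to 15.1, from 1824 fragments) and 11.4 FPKM in the control (10.8 to 12.1, from 1394 fragments). Its ratio was 1.26 (1.17 to 1.35), higher under overexpression than counting error alone gives. DGCR8, on chromosome 22 (20080232 to 20111877, plus strand), had 7.39 FPKM under overexpression (6.91 to 7.89) and 7.26 FPKM in the control (6.77 to 7.77), a ratio of 1.02 (0.925 to 1.12). Its levels overlapped between the libraries. DROSHA transcripts were thus at 1.95 times the level of DGCR8 under overexpression and at 1.58 times in the control.

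DGCR8 RNA is itself a substrate of the Microprocessor in human cells, since its exons hold the hairpins MIR3618 and MIR1306, which share 173 of the 7315 exon bases of DGCR8. The mature products of MIR1306 are printed here because cleavage at this hairpin removes DGCR8 messenger RNA (RefSeq, GRCh38.p14, plus strand, seed at bases 2 to 8 in capitals, at chr22:20086072-20086093 and chr22:20086112-20086129).
hsa-miR-1306-5p: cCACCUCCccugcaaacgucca
hsa-miR-1306-3p: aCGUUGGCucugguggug
A further 538 exon bases of DGCR8 are shared with genes of the other strand, so its value is less certain than that of DROSHA, whose exons share none.

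XPO5, on chromosome 6 (43522330 to 43576075, minus strand), had the highest FPKM of the 10 genes in both libraries. It had 21.5 FPKM under overexpression (20.7 to 22.3) and 20.6 FPKM in the control (19.8 to 21.4), a ratio of 1.04 (0.992 to 1.10). As deposited, only DGCR8 had a ratio nearer to 1. With the trends on GC content and length subtracted, XPO5 was at 0.028 and DGCR8 at 0.30 on the log2 scale. FPKM rests on the merged exon length, 8522 bases for XPO5 and 4090 for TARBP2. Their longest coding transcripts have 5364 and 1867 bases, and the order of levels by those lengths was not worked out. Exons of POLR1C on the other strand share 4.08% of its exon bases. RAN, the small GTPase that XPO5 needs to bind its cargo, was likewise nearly level, at 95.96 FPKM under overexpression and 95.7 FPKM in the control.

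The partners of the cytoplasmic cut lay on opposite sides of an equal level as deposited, DICER1 higher and TARBP2 lower under overexpression. With the trends on GC content and length subtracted DICER1 came to 0.39 and TARBP2 to 0.042 on the log2 scale. The median over all genes was then 0.10, between the 2. DICER1, on chromosome 14 (95086228 to 95158010, minus strand), had 7.86 FPKM under overexpression (7.48 to 8.26, from 1576 fragments) and 2.64 FPKM in the control (2.42 to 2.88, from 509 fragments). The ratio of 2.98 (2.69 to 3.29) was the largest of the 10, with a log2 ratio of 1.28, and 5.94% of all genes past the level had a log2 ratio at least as high. With those trends subtracted 17.6% were at least as high as DICER1, and TNRC6A, at 0.67, was the highest of the 10. TARBP2, on chromosome 12 (53500921 to 53506431, plus strand), had 11.97 FPKM under overexpression (11.2 to 12.8, from 798 fragments) and 17.1 FPKM in the control (16.1 to 18.2, from 1098 fragments). Its ratio was 0.698 (0.637 to 0.766), the lowest of the 10. DICER1 RNA was at 0.657 times the level of TARBP2 RNA under overexpression and at 0.154 times in the control, so TARBP2 was the more abundant transcript in both. PRKRA (PACT), the other double-stranded RNA binding partner of DICER1, had 10.8 FPKM under overexpression and 8.71 FPKM in the control. DICER1-AS1, an antisense gene that shares 80 exon bases with DICER1, had 1.30 and 0.772 FPKM in the same order.

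DICER1 is a known target of let-7, a microRNA family that the enzyme itself produces, and its coding region holds several matches to the let-7 seed. The mature let-7a and the sites are printed because they tie this transcript to the output of its own pathway. The microRNA is from RefSeq (GRCh38.p14), with the seed at bases 2 to 8 in capitals, and is encoded in 3 loci, of which MIRLET7A1 lies at chr9:94175962-94175983 on the plus strand. The sites are those in which 8 bases match (CTACCTCA, in capitals), searched on the sense strand of the longest coding transcript in GENCODE 29 on GRCh38, and lie on the minus strand at chr14:95103737-95103766, chr14:95103629-95103658 and chr14:95094095-95094124, in that order.
hsa-let-7a-5p: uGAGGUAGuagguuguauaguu
DICER1 coding base 3641: cgtgcaaccaaCTACCTCAtattccattca
DICER1 coding base 3749: tgctaacaaatCTACCTCAgatggaagtcc
DICER1 coding base 5139: gcgattttggaCTACCTCAtaaccaagcac
The coding bases number the start of each match from the first coding base. Of 10303 coding regions of genes past the level, 5.23% held at least 1 such 8-base match and 4 held 3 or more. With matches of 7 bases included (CTACCTC or TACCTCA, overlapping ones counted once), the 5769 coding bases of DICER1 held 5 sites, 0.867 per kilobase, beside 0.138 per kilobase over all these coding regions. TARBP2, with 1 coding site, was at 0.908 per kilobase, and AGO3, with 2, at 0.774. The coding regions of the 10 genes held 12 such sites in 6 genes, 0.362 per kilobase, and 20.3% of all held at least 1. The 3′ UTRs of the 10 genes held 13 such sites in 6 genes, 0.236 per kilobase, beside 0.110 per kilobase over all, and 17.5% of all held at least 1. A match is a description of the sequence, and no binding was measured. Regions of equal length were not compared.

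For miR-145-5p, which published work on LINC01133 in gastric cancer cells placed between it and YES1, the searched matches were AACTGGA and ACTGGAA on the sense strand. The mature sequence is printed to show the seed that defines them (RefSeq, GRCh38.p14, chr5:149430661-149430683, plus strand, seed in capitals).
hsa-miR-145-5p: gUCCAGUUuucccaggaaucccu
The 3′ UTRs of DICER1, AGO2 and AGO3 held 4 matches in all and those of the other 7 genes none, 0.0727 per kilobase beside 0.156 per kilobase over the 3′ UTRs of all 10303 genes, of which 23.3% held at least 1. The coding regions of the 10 genes held 13 matches in 7 genes, 0.392 per kilobase beside 0.262 per kilobase over all coding regions, of which 32.3% held at least 1.

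The 4 Argonaute transcripts kept their order in both libraries, AGO2 over AGO1 over AGO4 over AGO3, and their counting intervals did not overlap within a library. AGO2, the Argonaute known as the slicer, on chromosome 8 (140520156 to 140635619, minus strand), had 5.02 FPKM under overexpression (4.75 to 5.30) and 4.35 FPKM in the control (4.09 to 4.61), a ratio of 1.16 (1.06 to 1.25). AGO1 had 4.16 FPKM under overexpression (3.90 to 4.43) and 3.27 FPKM in the control (3.04 to 3.52), a ratio of 1.27 (1.15 to 1.40). Each of this more abundant pair thus differed by less than 1.5-fold between the libraries.

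As deposited, the ratios of the less abundant pair were larger, but with the trends on GC content and length subtracted AGO3, at -0.28, lay below AGO1, at 0.036, and AGO2, at -0.046. AGO4 had 3.33 FPKM under overexpression (3.01 to 3.67, from 394 fragments) and 1.81 FPKM in the control (1.57 to 2.07, from 206 fragments), a ratio of 1.84 (1.55 to 2.19). AGO3, with the lowest level of the 10 genes in both libraries, had 2.07 FPKM under overexpression (1.92 to 2.23, from 715 fragments) and 0.968 FPKM in the control (0.865 to 1.08, from 321 fragments). Its ratio was 2.14 (1.87 to 2.45), but its log2 ratio of FPKM + 1 was 0.64, since the added 1 weighs most on low values.

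AGO4, AGO1 and AGO3 lie in that order on the plus strand of chromosome 1, within 264329 bases (AGO4 from 35808172 to 35857890, AGO1 from 35869808 to 35930528, AGO3 from 35930718 to 36072500). AGO1 ends 189 bases before AGO3 begins. As deposited, these neighbours nonetheless had different ratios, since the interval of AGO1 lay below those of AGO3 and AGO4, which overlapped each other. With the trends on GC content and length subtracted the order was another, with AGO3 at -0.28, AGO1 at 0.036 and AGO4 at 0.21. Exons of genes on the other strand share 2.85% of the exon bases of AGO1 and 0.406% of those of AGO3.

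Summed over the 4 Argonautes, the level was 14.6 FPKM under overexpression and 10.4 FPKM in the control. AGO2 made up 34.4% of that sum under overexpression (32.9 to 36.0) and 41.8% in the control (39.8 to 43.8). AGO3 made up 14.2% under overexpression (13.2 to 15.3) and 9.32% in the control (8.34 to 10.4). AGO4 made up 22.8% under overexpression (20.98 to 24.7) and 17.4% in the control (15.4 to 19.6). As deposited, the mix of Argonaute RNA therefore held less AGO2 and more AGO3 and AGO4 under overexpression, beyond counting error, but on the trend-subtracted scale AGO3 lay below AGO2. AGO1 made up 28.5% under overexpression (26.99 to 30.1) and 31.5% in the control (29.6 to 33.4), intervals that overlap. GC content was 38.9% for AGO3 and 44.2% for AGO4, beside 46.4% for AGO1 and 46.6% for AGO2.

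**Figure D2:**
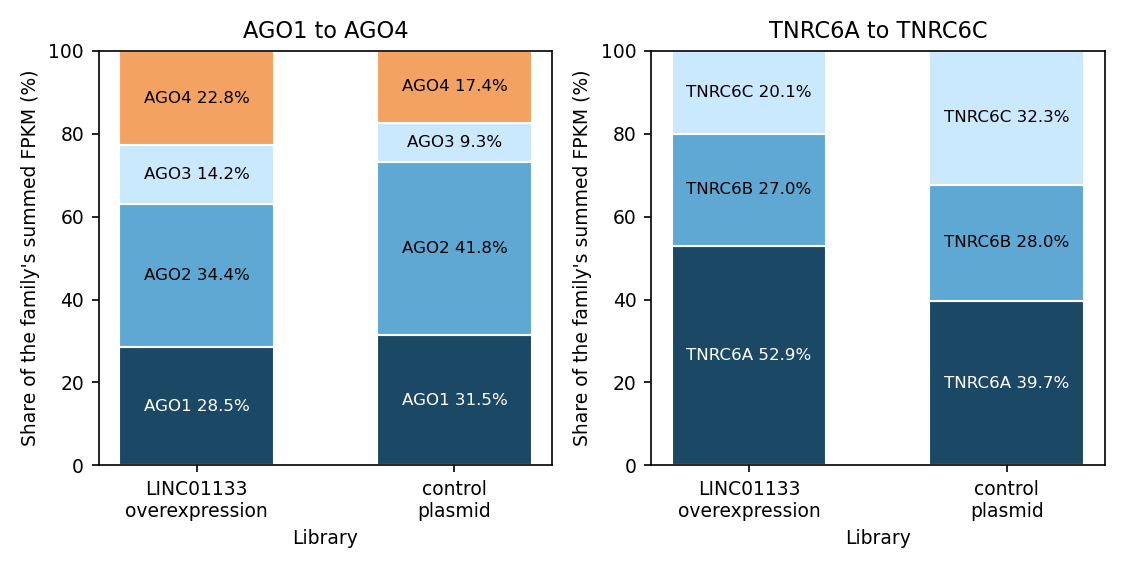
Share of each gene in the summed FPKM of AGO1 to AGO4 (left panel) and of the GW182 family TNRC6A to TNRC6C (right panel), as stacked bars for the overexpression library (left bar) and the control library (right bar). AGO2 takes 34.4% under overexpression and 41.8% in the control, and TNRC6A 52.9% and 39.7%.

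TNRC6A, the Argonaute partner that recruits the silencing machinery, had the second largest ratio. The gene, on chromosome 16 (24610209 to 24827632, plus strand), had 6.26 FPKM under overexpression (5.93 to 6.61, from 1320 fragments) and 2.80 FPKM in the control (2.57 to 3.04, from 566 fragments). Its ratio of 2.24 (2.03 to 2.48) gave a log2 ratio of 0.94, just under the 2-fold threshold on that scale. Its exons share no base with another gene. Its paralogues differed less, with TNRC6B at 3.19 FPKM under overexpression and 1.98 FPKM in the control (ratio 1.62, 1.46 to 1.79) and TNRC6C at 2.37 and 2.27 FPKM in the same order (ratio 1.04, 0.908 to 1.20). TNRC6A made up 52.9% of the summed FPKM of the 3 paralogues under overexpression and 39.7% in the control. It was at 1.25 times the level of AGO2 under overexpression and at 0.643 times in the control.

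The order of the 10 transcripts by level differed between the libraries in the places of DICER1, TNRC6A, TARBP2 and the genes they passed. Under overexpression it ran XPO5, DROSHA, TARBP2, DICER1, DGCR8, TNRC6A, AGO2, AGO1, AGO4, AGO3. In the control it ran XPO5, TARBP2, DROSHA, DGCR8, AGO2, AGO1, TNRC6A, DICER1, AGO4, AGO3. Neighbours whose counting intervals overlapped were DICER1 and DGCR8 under overexpression, and TNRC6A and DICER1 in the control. By FPKM, DICER1 thus ranked 4 of the 10 under overexpression, at the level of DGCR8, and 8 in the control. These ranks use the merged exon length, 12294 bases for DICER1 and 7315 for DGCR8. Their longest coding transcripts have 10331 and 4514 bases, and ranks by those lengths were not worked out.

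The log2 ratios followed the base composition of the transcripts, which moved with the ratio over all genes too. DICER1 and AGO3 were the most AT-rich of the 10, with a GC content of 39.2% and 38.9% in the longest coding transcript, and TARBP2 was the most GC-rich, at 60.8%. Between log2 ratio and GC content the Spearman correlation was -0.903 over the 10 genes, and -0.801 over 11913 genes past the level. These are descriptions across genes of the same libraries, and the part of base composition in any single ratio was not tested. All genes were placed in 10 equal bins by GC content. In the bin of DICER1 and AGO3 (38.7% to 41.3%) 34.3% of genes were past 2-fold and the median log2 ratio was 0.85, so DICER1, at 1.28, lay above the median of its bin and AGO3, at 0.64, below it. In the bin of TARBP2 (58.7% to 62.3%) the median was -0.37, beside -0.48 for TARBP2.

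Of the 10 genes TNRC6A lay farthest from the genes of its own composition. In the bin from 43.6% to 46.2% GC, which holds TNRC6A, DROSHA and AGO4, the median log2 ratio was 0.39. TNRC6A, at 0.94, was above that median, AGO4, at 0.62, was nearer to it, and DROSHA, at 0.31, was just below. After subtraction of the trends on GC content and transcript length, 0 of the 10 genes were past 2-fold in either direction, beside 1.70% higher and 0.764% lower among all genes. On that scale 8 of the 10 were above 0, beside 64.2% of all genes, and their median was 0.044, beside 0.10 over all genes. The subtraction keeps the median over all genes, so the middle of that scale is 0.10 rather than 0. TNRC6A was at 0.67, with 5.45% of all genes at least as high, DICER1 at 0.39, DGCR8 at 0.30 and AGO4 at 0.21. AGO3 was at -0.28 and AGO2 at -0.046. TARBP2, at 0.042, stayed below the median over all genes, with 58.0% of them at least as high.

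**Figure D3:**
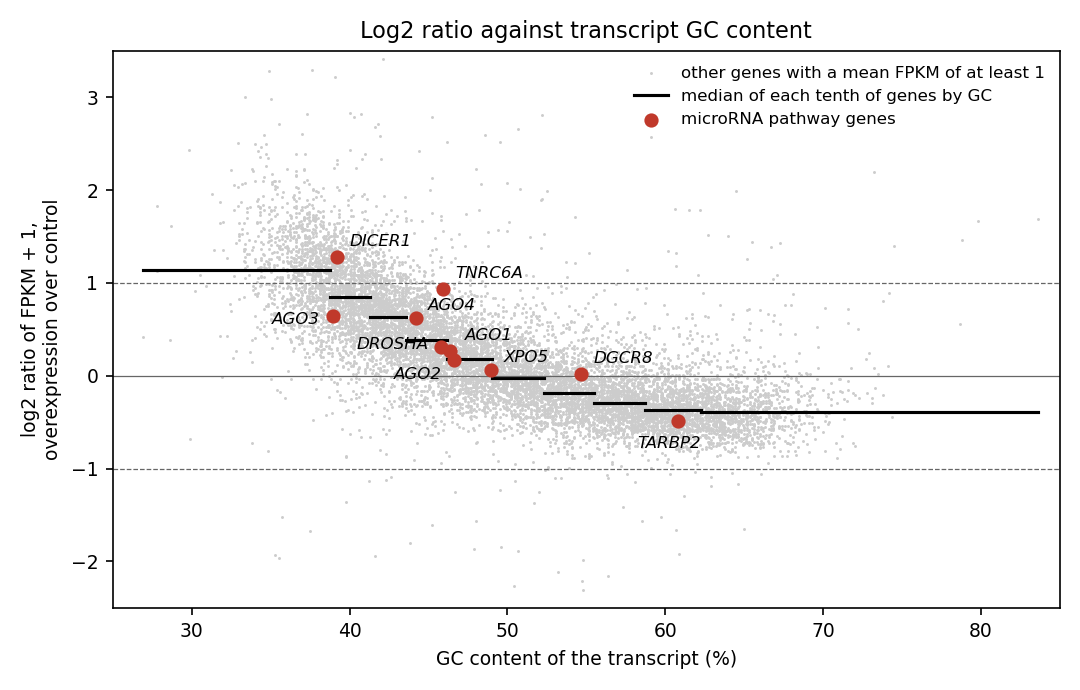
Log2 ratio of FPKM + 1 (overexpression over control) against the GC content of the transcript in percent, for the 10 genes (red, labelled) and the other genes past the level (grey; 5 genes lie outside the axis). Black bars are medians of the 10 bins by GC content; DICER1 and TNRC6A lie above the bars of their bins and AGO3 below.

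The composition differs along these transcripts. The 3′ UTR of DICER1 has a GC content of 34.1% over 4270 bases, and its coding region 42.7%. Those of AGO1 and AGO2 are long, at 10921 and 11888 bases, with 43.9% and 44.0% GC beside coding regions of 54.7% and 56.7%. AGO3 has the longest 3′ UTR of the 10, 16755 bases at 37.2% GC. The shortest was that of TARBP2, 283 bases at 53.0% GC. The median 3′ UTR length was 3345 bases over the 10 genes and 1343 over the coding genes past the level.

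The smaller ratios also moved with the choice of scaling. All log2 ratios of FPKM shifted by -0.21 under the trimmed mean of M values, by -0.20 under the median of ratios and by -0.42 under the upper quartile. Relative to such a shift, DGCR8 and XPO5 turned to lower values under each of these 3 scalings, to between -0.14 and -0.35 on the log2 scale. AGO2 was at 0.0030 by the median of ratios, at -0.0045 by the trimmed mean of M values and at -0.17 by the upper quartile, where DROSHA and AGO1 turned as well, to -0.082 and -0.059. DICER1, TNRC6A, AGO3 and AGO4 stayed above 0 under all 3 scalings and TARBP2 below, and DICER1 went under 2-fold by the upper quartile, at 0.94.

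**Figure D4:**
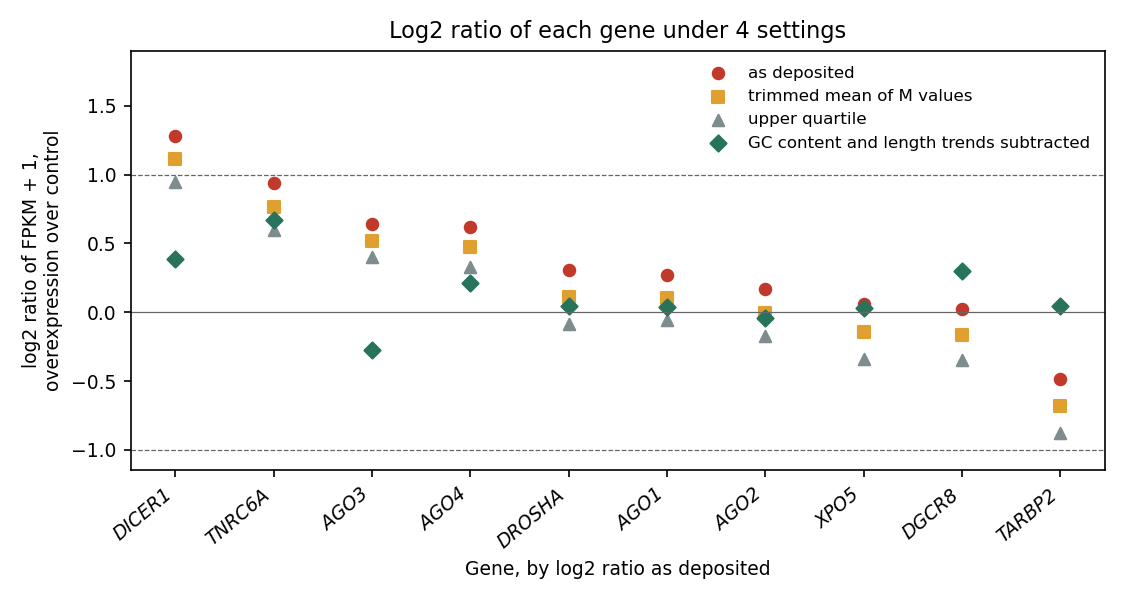
Log2 ratio of FPKM + 1 (overexpression over control) of each gene as deposited (circles), with 2 other scalings (squares and triangles) and with the trends on GC content and length subtracted (diamonds); dashed lines mark 2-fold. DICER1 is at 1.28 as deposited and at 0.39 after that subtraction, and TNRC6A at 0.94 and 0.67.

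Among 84 further genes of the pathway past the level, on 7 lists, 12 (14.3%) were at least 2-fold higher under overexpression and 0 lower, near the 11.9% and 0.444% over all genes, with a median log2 ratio of 0.37. After subtraction of the trends 0 of the 84 were past 2-fold, beside 1.70% higher and 0.764% lower over all genes, and the median was 0.10, the value over all genes.

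The list of the nuclear step held 0 genes past 2-fold, beside 11.9% higher and 0.444% lower over all genes. Of 18 Microprocessor partners 13 had a log2 ratio above 0, beside 55.4% of all genes, with a median of 0.23. The RNA-binding proteins HNRNPA2B1 (139.6 FPKM under overexpression and 71.7 in the control, log2 ratio 0.95), DDX17 (63.2 and 36.5, 0.78) and NCBP2, a subunit of the cap-binding complex (17.3 and 9.74, 0.77), had the largest ratios. On the trend-subtracted scale these were at 0.042, 0.48 and 0.23.

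Export and DICER1 partners held the most genes past 2-fold, 4 of 11 beside 11.9% of all genes, with a median of 0.72. Under the trimmed mean of M values 1 of the 11 was past it, beside 8.07%, and with the trends subtracted none, beside 1.70%. XPO1, the exportin of proteins and some RNAs, had 39.5 FPKM under overexpression and 13.7 in the control, a ratio of 2.88 (2.75 to 3.01). FMR1, the fragile X protein gene, had 5.54 and 2.07 FPKM in the same order, TSNAX, a subunit of the C3PO nuclease, 4.12 and 1.51, and FXR1 10.8 and 4.79. All 4 transcripts had a GC content under 40%. XPO1 was at 0.63 with the trends subtracted and the other 3 between -0.033 and 0.22.

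Genes of Argonaute loading and regulation were at least 2-fold higher in 2 of 13 cases, beside 11.9% of all genes, with a median of 0.34. EIF1AX had 21.9 FPKM under overexpression and 5.13 in the control, and HSP90AA1, a chaperone used to load Argonaute, 441.9 and 189.8. The co-chaperone PTGES3 had 240 and 120 FPKM, a log2 ratio of 0.995, just under the threshold. These 3 were at 0.69, 0.95 and 0.48 with the trends subtracted. Of 8 silencing scaffold and LIM protein genes past the level 0 were past 2-fold, beside 11.9% higher and 0.444% lower over all genes. The median log2 ratio of that list was -0.014 and its median GC content 52.0%. Beside TNRC6B, the largest differences there were those of SND1, a staphylococcal nuclease domain protein (69.7 FPKM under overexpression and 94.5 in the control, log2 ratio -0.43), and the helicase MOV10 (14.1 and 16.8, -0.23). With the trends subtracted TNRC6B was at 0.10, SND1 at -0.13 and MOV10 at 0.12.

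The enzymes downstream of TNRC6A differed by subunit. Of 14 deadenylase genes (CCR4-NOT, PAN2-PAN3 and the separate enzyme PARN) 3 were at least 2-fold higher, beside 11.9% of all genes, with a median of 0.51: the catalytic subunits CNOT7 (9.79 FPKM under overexpression and 4.26 in the control, ratio 2.30, 2.11 to 2.51) and CNOT6L (3.66 and 1.29), and PAN3, the regulatory subunit of PAN2 (4.94 and 1.91). None of the 3 was past 2-fold by the trimmed mean of M values. On the trend-subtracted scale CNOT7 was at -0.16, CNOT6L at -0.12 and PAN3 at 0.096. Of 13 decapping and decay genes 1 was past 2-fold, again beside 11.9%, the decapping enzyme DCP2 (3.24 and 0.898 FPKM, ratio 3.61, 2.99 to 4.38). The exonuclease XRN1 (1.95 and 0.629) and the helicase DDX6 (12.2 and 6.31) had log2 ratios of 0.86 and 0.85. That list had a median of 0.15, which the trimmed mean of M values moved to -0.052, beside -0.073 over all genes. DCP2, XRN1 and DDX6 were at 0.10, -0.21 and 0.043 with the trends subtracted.

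Genes that control let-7 and the tailing of microRNAs had the highest median, 0.93 over 7 genes, of which 2 were at least 2-fold higher, beside 11.9% of all genes, and 6 above 0, beside 55.4%. The terminal nucleotidyltransferases TENT4B (6.86 FPKM under overexpression and 2.71 in the control, ratio 2.53, 2.23 to 2.87), TUT7 (5.58 and 2.24) and TUT4 (4.26 and 1.69) had log2 ratios of 1.08, 1.02 and 0.97, and none was past 2-fold by the trimmed mean of M values. LIN28B, which blocks the maturation of let-7, had 2.44 FPKM under overexpression and 0.861 in the control, a ratio of 2.84 (2.195 to 3.69). LIN28A was at 0 in both libraries, which by a limit of 3 fragments allows up to 0.0459 FPKM under overexpression and 0.0478 in the control. With the trends subtracted the median of the list was 0.19, TENT4B was at 0.40, TUT7 at 0.31, TUT4 at 0.19 and LIN28B at -0.089. The median GC content of the list was 40.9%, the lowest of the 7.

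**Figure D5:**
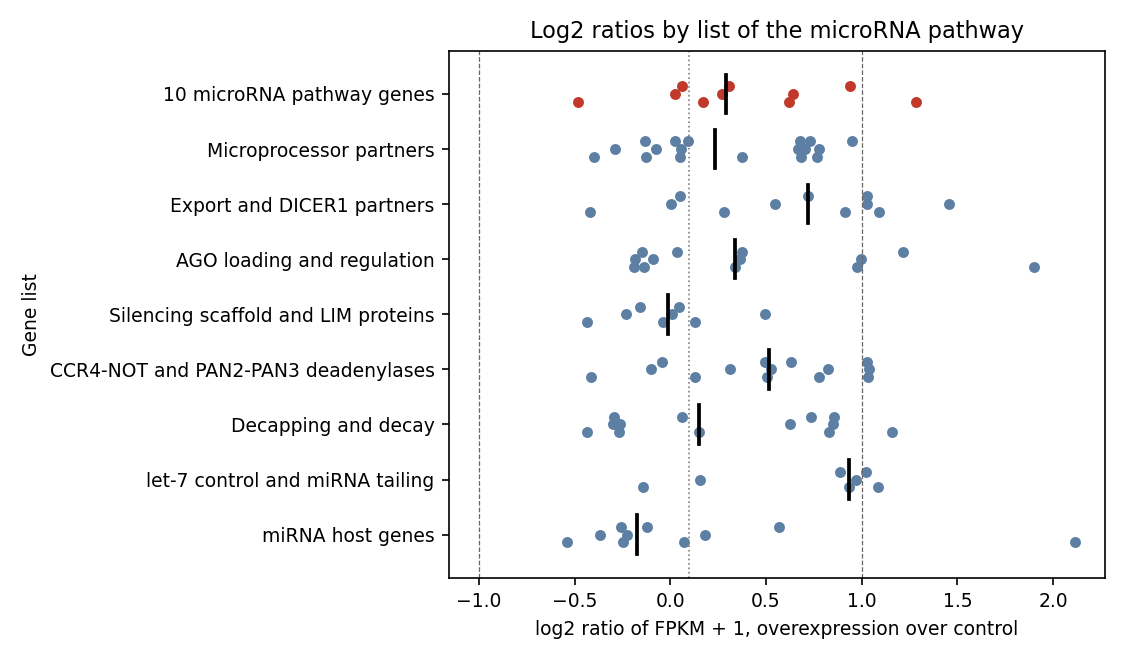
Log2 ratio of FPKM + 1 (overexpression over control) for the 10 genes (red) and for the genes of each list past the level (blue); black bars are list medians, the dotted line is the median of all genes, 0.10, and dashed lines mark 2-fold. The let-7 control and tailing list has the highest median, 0.93, and the host gene list the lowest, -0.17.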

How the data were processed

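Per the labels' protocols, poly(A) RNA of HGC27 cells was sequenced in 2 libraries. The build GRCh38 and the tools HTSeq 0.6.0, HISAT2 2.1.0 and Bowtie2 2.2.3 are named in the submitters' processing notes, with no roles given. The values the authors deposited carry no named unit and were read as FPKM: times the merged exon length (GENCODE 29), 94.4% under overexpression and 94.5% in the control were whole multiples of 1 step within 0.02 of a fragment. The steps gave depth and fragments, and from these exact Poisson (levels) and Clopper-Pearson (ratios, shares) intervals; share intervals hold the mix of the other genes fixed. Handling of fragments shared by overlapping genes, and of strand, is not given in the sources used here, so such values are uncertain. Trends were lowess fits (span 0.3, statsmodels 0.14.6) on GC content and log2 length, over 11913 genes. After subtraction the median over all genes was set back to its deposited value, 0.10. The members and lists were chosen with earlier results of these data known. Beside the 10 genes, up to 3 genes a list with the largest absolute log2 ratio are named; markers, RAN, PRKRA, FXR1, TNRC6C, LIN28A, LIN28B, MIR17HG and DICER1-AS1 were added for their role or to complete a count, after their values were seen. Alternatives were other scalings, pseudocounts, filters, thresholds and trend subtraction.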

Additional observations from a re-analysis of the deposited data

How the results depend on the processing

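No paired analysis was possible because only 1 library stood for each group, so leaving out a replicate was not possible either. The count of 1 of 10 genes at least 2-fold higher became 3 with a pseudocount of 0.1 FPKM and with a prior of 10 fragments. It became 4 at a 1.5-fold threshold, and 0 by the upper quartile, with both trends subtracted and with that on GC content alone. The count of 0 lower kept its value in all of these settings. The shares of all genes higher at that pseudocount, prior and threshold are not given here. The counts of 3 and 4 thus have no background beside them. The median log2 ratio of 0.29 became 0.11 by the trimmed mean of M values and by the median of ratios, and -0.070 by the upper quartile. Over all genes past the level, where it was 0.10 as deposited, it became -0.073, -0.065 and -0.23 in the same order. The median of the 10 genes was 0.044 with both trends subtracted (0.10 over all genes) and 0.0996 with that on GC content alone. Over the 5 genes whose FPKM averaged 5 or more it was 0.060. The counts of listed genes higher became, by the trimmed mean of M values, 1 of 11 export and DICER1 partners and 0 of the deadenylase and let-7 lists, and with both trends subtracted 0 of the export, Argonaute loading, deadenylase, decay and let-7 lists. The shares of AGO1 to AGO4 stayed within their intervals when the length of the longest coding transcript was used. Where a value moved, the cause was not tested. Depth limits AGO4 and AGO3 most among the 10 genes, with 206 and 321 fragments in the control.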

Other observations

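Log2 ratios of genes that host microRNA hairpins spanned -0.54 to 2.11, beside -0.48 to 1.28 for the 10 processing and Argonaute genes. Of 22 host genes on the list, 18 were listed and 10 passed the mean of 1 FPKM. Of these 10, 1 was at least 2-fold higher, beside 11.9% of all genes, and 0 were lower, beside 0.444%. Their median log2 ratio was -0.17. SMC4, a condensin subunit whose intron holds the miR-15b and miR-16-2 hairpins, had 14.7 FPKM under overexpression and 2.63 FPKM in the control, a ratio of 5.60 (4.99 to 6.29). Its log2 ratio of 2.11 was 1.06 after the trends on GC content and length were subtracted. CTDSP1, host of miR-26b, had 20.4 FPKM under overexpression and 30.2 in the control (log2 ratio -0.54, then -0.045), and MIR99AHG had 2.66 and 1.47 (0.57, then -0.29). MIR17HG, the host of the miR-17 to miR-92a cluster, lay under the level in the mean, with 66 fragments under overexpression and 11 in the control. Host transcript levels are not microRNA levels, which a poly(A) library does not measure.

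The PIWI genes, relatives of the Argonautes that act in the germ line, were barely detected. PIWIL3 was at 0 in both libraries, which allows up to 0.0484 FPKM under overexpression and 0.0504 in the control, PIWIL2 had 5 fragments under overexpression and 4 in the control, and PIWIL4 had 3 and 11. Of 8 genes that earlier work tied to LINC01133 or its microRNAs, 3 were at least 2-fold higher, beside 11.9% of all genes, with a median log2 ratio of 0.50: YES1 (26.95 FPKM under overexpression and 6.48 in the control), APC (3.82 and 1.24) and YAP1 (16.95 and 7.94). Their log2 ratios were 1.901, 1.11 and 1.01, and 0.91, 0.25 and 0.54 with those trends subtracted, where none was past 2-fold, beside 1.70% of all genes higher. By the trimmed mean of M values 1 of the 8 was at least 2-fold higher, beside 8.07% of all genes. The 3 annotated LINC01133 transcripts, of 1266, 1113 and 1996 bases, held 0 of the miR-145-5p matches AACTGGA and ACTGGAA on the sense strand, beside 20.6% of the longest transcripts of 2614 lincRNA genes with at least 1. The absence was not particular to miR-145-5p. Matches to let-7a-5p (CTACCTC and TACCTCA) and to miR-16-5p (TGCTGCT and GCTGCTA) were also at 0 in them, beside 12.2% and 20.1% of those lincRNA transcripts. These counts say only that these letters are not in these annotated sequences.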
